A study of Rattus norvegicus with 20 samples.

Results

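Cytochrome P450, glutathione S-transferase (GST), UDP-glucuronosyltransferase (UGT) and sulfotransferase genes were followed in rat mammary cancers and normal mammary tissue. The genes were taken by name: every array probe whose RefSeq accession led to a symbol beginning Cyp, Gst, Ugt or Sult followed by the family's number or class letter, leaving out Cyp51 and Cyp19a1. This gave 105 probes for 90 genes, of 36912 genes on the array, and 84 of the 90 genes passed the filter on dim probes. Cyp2b12, Cyp3a2, Cyp7a1, Sult1c3, Ugt2b37 and Ugt8 did not pass it, and no probe was named Cyp7b1 or Gsta4.

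All rats were female Jcl:SD Sprague-Dawley animals given 4 Gy of whole-body Cs-137 gamma rays at 7 weeks of age and then observed for 30 weeks. Obesity-prone (OP) and obesity-resistant (OR) rats ate a diet with 45 kcal% fat and were told apart by body weight, while lean control (LC) rats ate one with 10 kcal% fat. Each of 20 samples of frozen tissue had its own 1-colour array: 6 OP, 3 OR and 3 LC adenocarcinomas, and 3 OP, 2 OR and 3 LC normal tissues. The cancers had been picked for homogeneous histology without necrosis or marked infiltration, every normal tissue was irradiated too, and no unirradiated tissue was included. Nothing in the labels ties every sample to a rat of its own, so the p-values reflect only sample-to-sample spread, which may in part be technical.

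These 4 families handle foreign and endogenous small molecules. Cytochrome P450 enzymes add oxygen to drugs, carcinogens, steroids, retinoids, vitamin D and fatty acids, drawing electrons from P450 reductase. GSTs, UGTs and sulfotransferases then attach glutathione, glucuronic acid or sulfate, which makes most products easier to excrete. The liver is their best known site, and the mammary gland is known to carry some of them in its epithelium and its fat, where they act on estrogens and carcinogens. Several are switched on through the aryl hydrocarbon receptor, which binds xenobiotic response elements, or through Nrf2, which binds antioxidant response elements.

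Promoters are shown for the 3 genes with the largest falls in the cancers and for Gstp1, the called rise that kept its direction on every scale tried, so that the 2 best known control elements of these families can be read directly. The windows run from 250 bases before to 50 bases after the annotated start in RefSeq's GRCr8 assembly, 5′ to 3′ on the gene's strand. Capitals mark GCGTG (the xenobiotic response element core) and TGACNNNGC (the antioxidant response element core), each searched on both strands, so that CACGC is GCGTG read on the other strand. The 2 motifs do not overlap in these windows.
Gstp1, chr1:210769656-210769955, minus strand: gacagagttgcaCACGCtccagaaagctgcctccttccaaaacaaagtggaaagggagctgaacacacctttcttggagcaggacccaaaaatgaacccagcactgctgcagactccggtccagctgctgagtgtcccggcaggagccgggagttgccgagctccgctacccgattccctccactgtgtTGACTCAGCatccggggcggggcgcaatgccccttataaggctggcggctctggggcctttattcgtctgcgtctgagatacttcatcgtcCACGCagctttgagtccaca
Sult1a1, chr1:190706063-190706362, minus strand: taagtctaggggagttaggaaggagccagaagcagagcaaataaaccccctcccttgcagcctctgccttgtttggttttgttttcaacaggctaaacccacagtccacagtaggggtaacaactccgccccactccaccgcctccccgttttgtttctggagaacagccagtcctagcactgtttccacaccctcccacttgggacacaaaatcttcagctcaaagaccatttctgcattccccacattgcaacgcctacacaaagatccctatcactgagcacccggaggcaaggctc
Gstm2, chr2:198316868-198317167, minus strand: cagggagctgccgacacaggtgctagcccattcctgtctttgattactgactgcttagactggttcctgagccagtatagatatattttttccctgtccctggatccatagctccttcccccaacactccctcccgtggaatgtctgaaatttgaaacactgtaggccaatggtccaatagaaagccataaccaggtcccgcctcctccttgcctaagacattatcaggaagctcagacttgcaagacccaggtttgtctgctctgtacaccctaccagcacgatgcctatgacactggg
Gsta1, chr9:31216483-31216782, minus strand: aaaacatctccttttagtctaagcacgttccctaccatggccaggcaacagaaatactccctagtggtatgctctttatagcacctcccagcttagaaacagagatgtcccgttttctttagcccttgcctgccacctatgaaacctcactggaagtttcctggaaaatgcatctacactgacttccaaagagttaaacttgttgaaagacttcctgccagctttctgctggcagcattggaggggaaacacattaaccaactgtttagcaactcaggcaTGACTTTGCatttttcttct

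The Gstp1 window held 2 matches to the xenobiotic core and 1 to the antioxidant core, TGACTCAGC, which began 61 bases before the start. The Gsta1 window held 1 antioxidant match, and the Sult1a1 and Gstm2 windows held neither motif. The windows of Sult2b1 and Cyp27b1, also called higher, had been planned too and are not shown. Sult2b1 held 1 xenobiotic match and Cyp27b1 neither motif. Promoters were available for 70 of the 84 tested genes, and 15 of the 70 (21.4%) held the xenobiotic core, against 29.7% of all 33469 promoters of this length. The antioxidant core was in 9 of the 70 (12.9%), against 12.1% of all promoters. Among the tested genes that were lower in cancers, 6 of 36 promoters (16.7%) held the xenobiotic core and 6 of 36 the antioxidant core, and among those called higher 3 of 5 (60%) and 1 of 5 (20%) did. These are letter matches within a short window and say nothing about binding.

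The 2 tissues differed in how much of the array gave signal, which decides what can be said about these genes. Of all probes, 61.3% to 79.3% were well above background on the cancer arrays, and 87.7% to 97.7% on the normal tissue arrays. For probes of the 4 families the shares were 35.2% to 56.2% on cancer arrays and 82.9% to 91.4% on normal tissue arrays. Probes for olfactory receptors, which neither tissue is known to use, passed in 8.51% to 26.8% on cancer arrays and in 42.3% to 79.6% on normal tissue arrays, so a passed mark on a normal tissue array is weak evidence of expression. Of the 84 tested genes, 28 were above background on all 20 arrays, 40 on some cancer arrays and 16 on no cancer array. The results below rest on the 28.

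**Figure D1:**
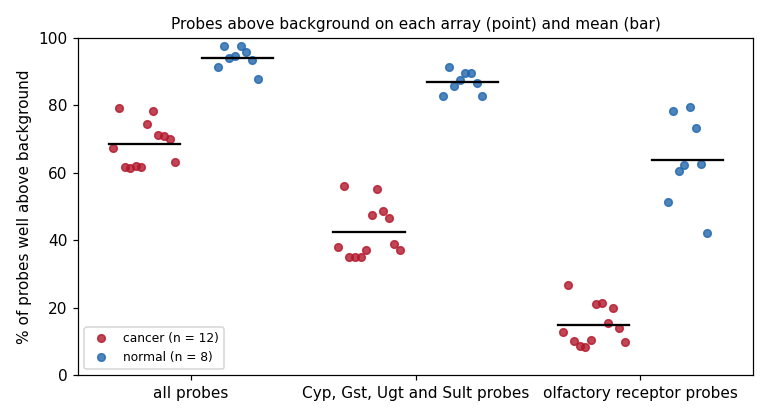
Share of probes well above background (y axis, %) on each array (points; 12 cancers in red, 8 normal tissues in blue) for all probes, for the probes of the 4 families and for olfactory receptor probes, with means as bars. In each set every cancer array lies below every normal tissue array, and the olfactory receptor probes reach 79.6% on a normal tissue array.

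The first question was how these genes differ between mammary cancers and normal mammary tissue. Most of the 28 well-measured genes that changed were lower in the cancers: 16 fell, 3 rose and 9 did not pass the test. Sult1a1 had the largest difference, 16.2-fold lower in cancers, and the mu and alpha GSTs Gstm2, Gsta1 and Gsta3 were 3.04- to 4.62-fold lower. The pi-class GST Gstp1, the cholesterol sulfotransferase Sult2b1 and the vitamin D activating enzyme Cyp27b1 were the 3 called higher. Calls are limma's, at an adjusted p under 0.05 over 36038 genes, for the mean of the 3 cancer groups minus the mean of the 3 normal groups on the quantile-normalized log2 scale.

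Over all genes 62.4% were called in this comparison, 29% higher and 33.5% lower. Among the genes above background on all 20 arrays, of which there were 19440, 67.7% were called, 41.1% higher and 26.6% lower. The median log2 difference of the 28 was -0.59, beside 0.14 for those 19440 genes, and that of all 84 tested family genes was -0.16, beside -0.03 for all 36038. Of the 84, 43 were called lower and 5 higher. Levels did not overlap between the 12 cancers and the 8 normal tissues for 10 of the 28 genes, 9 lower and 1 higher in cancers, where 8.4% and 12.4% of the 19440 genes did so. Of the 84, 20 lay wholly lower and 2 wholly higher in cancers, where 11.6% and 8.64% of all genes did so.

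When arrays were instead aligned at their 75th percentile, the median difference of all genes moved to -1.51 with the processed signals and -0.80 with background-corrected ones, and that of the 19440 genes to -0.20 and -0.18. The shift was not the same for every gene. With the processed signals the dim Cyp2e1 moved from -0.43 to -4.03, and the bright Gsta1 from -1.94 to -1.79. A difference is therefore read here against the 19440 genes as well as against 0. All 16 falls stayed below the median of the 19440 genes on both scales, but their sizes changed in both directions. With the processed signals Sult1a1 moved from -4.02 to -5.11, Gstm7 from -1.32 to -2.36 and Sult1d1 from -0.80 to -2.22. Cyp4f6 moved the other way, from -0.81 to -0.61, as Gsta1 did. Of the 3 rises, Gstp1 stayed above that median by 0.86 and 0.95 and Sult2b1 by 0.09 and 0.04, and the Cyp27b1 differences of -0.66 and -0.44 lay below it. Against 0, the 16 falls stayed below and Gstp1 alone of the rises stayed above, with Sult2b1 at -0.11 and -0.14.

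**Figure D2:**
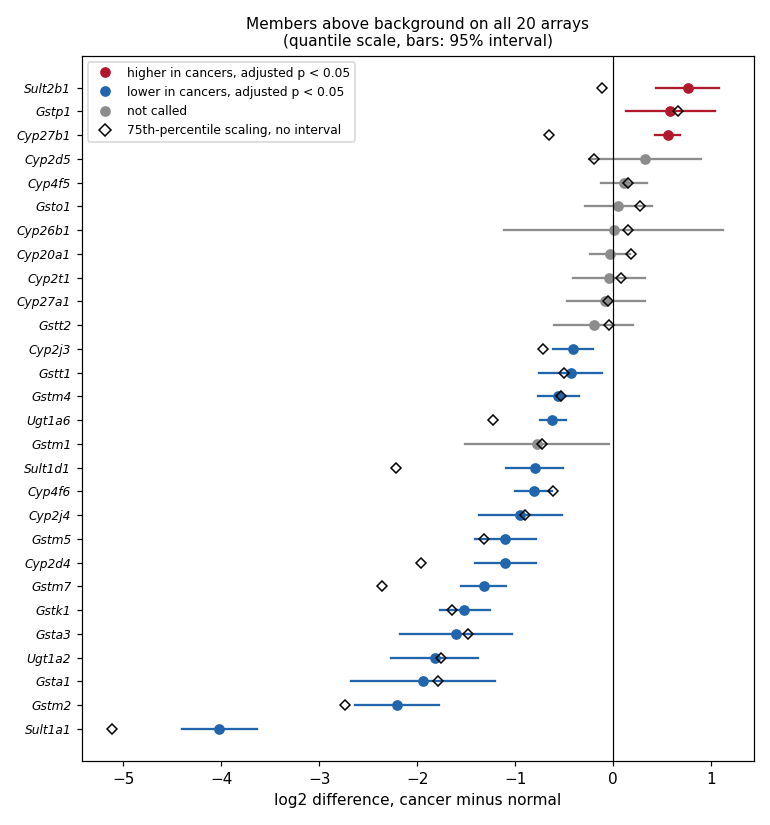
Log2 difference, cancer minus normal (x axis), for the 28 genes above background on all 20 arrays: filled points with 95% intervals are the quantile scale, and open diamonds the processed signal aligned at the 75th percentile. Sult1a1 lies at -4.02, and the other 15 called falls lie between -2.21 and -0.41. The diamonds of Sult2b1, Cyp27b1 and the uncalled Cyp2d5, Cyp20a1 and Cyp2t1 lie on the opposite side of 0 from their points.

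Among the sulfotransferases, Sult1a1 conjugates phenols and catechol estrogens. Its log2 level in the OP cancers ran from 7.28 through a median of 7.51 to 7.96. It was 7.31, 7.20 and 7.45 in the OR cancers and 7.13, 7.69 and 7.44 in the LC cancers. In normal tissue it was 12.28, 11.15 and 10.82 in OP rats, 11.01 and 11.39 in OR rats, and 12.31, 11.52 and 11.45 in LC rats. The highest cancer thus lay well under the lowest normal tissue. The difference was -4.02 ± 0.18 (SE), adjusted p = 1.12e-10 by limma, and it was -5.02, -3.89 and -3.91 within the 3 slides that carried both tissues. Slide 1 carried 1 OP and 1 LC cancer, and slides 2 and 3 carried 1 cancer each. In bulk tissue, fewer cells of a type and less RNA per cell cannot be told apart, here and in all that follows.

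Markers of fat cells moved with these falls. All 8 tested of the 9 adipocyte markers were called lower in cancers, and their mean log2 level was 7.05 to 7.44 in the cancers, against 11.47 to 12.29 in the normal tissues. The marker Lep was well above background on no cancer array. The 8 luminal epithelial markers were all called higher, with means of 13.75 to 14.79 in cancers and 10.51 to 13.09 in normal tissues. The 3 tested endothelial markers and 3 of 4 tested fibroblast markers were called lower, and the other fibroblast marker, Lum, was not called (0.76). Myoepithelial and liver markers moved both ways. Krt5 was called higher (2.41) and Oxtr and Cnn1 lower (-1.73 and -0.77), and Krt14 was not called. Serpina1 and Hp were called higher (1.93 and 1.37) and Alb, Fgb and Ttr lower (-4.66, -0.75 and -0.50), and Apoa1 was not called. Of the macrophage markers Cd14 and Tyrobp were called lower, and Csf1r and Cd68 were not called. The part of these cell types in the changes of the drug-metabolism genes was not tested.

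Sult1d1, which in mice conjugates catecholamines, was also lower, at 6.86 to 7.47 in cancers (median 7.26) and 7.32 to 8.45 in normal tissues (median 8.07), a difference of -0.80 ± 0.138 (SE, adjusted p = 0.000108 by limma). Its groups overlapped, since 4 cancers reached the lowest normal tissue. Sult2b1, which sulfates cholesterol and other hydroxysteroids, was 7.20 to 8.55 in cancers (median 7.45) and 6.57 to 7.32 in normal tissues (median 6.90). Its difference was 0.76 ± 0.15 (SE, adjusted p = 0.000373 by limma), but -0.11 and -0.14 on the 75th-percentile scales, where the median of the 19440 genes was -0.20 and -0.18. Sult1e1, the estrogen sulfotransferase, was above background on 1 of 12 cancer arrays and 5 of 8 normal arrays and differed by 0.04 (adjusted p = 0.677 by limma), so that no difference could be read at this signal.

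Of the 12 GST genes among the 28, 8 fell and 1 rose. All 5 mu-class genes among the 28 had lower means in the cancers, and 4 passed the test. Gstm2 ran from 7.63 through a median of 8.24 to 8.83 in OP cancers, and was 7.96, 8.78 and 8.85 in OR cancers and 7.65, 8.63 and 8.0 in LC cancers. In normal tissue it was 10.86, 10.19 and 9.92 in OP rats, 10.13 and 10.06 in OR rats, and 11.45, 11.27 and 10.44 in LC rats. No cancer reached the lowest normal tissue, and the difference was -2.21 ± 0.204 (SE, adjusted p = 2.26e-07 by limma). Gstm7 and Gstm5 likewise did not overlap and differed by -1.32 and -1.10, and Gstm4, in which 1 cancer reached the normal range, by -0.56.

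Gstm1 did not pass, with a difference of -0.78 ± 0.346 (SE, adjusted p = 0.061 by limma). OP cancer 4 stood far above the other cancers at 11.78, the other 11 lying between 8.32 and 9.77, and without it the difference was -0.92 (adjusted p = 0.00112 by limma). The mu-class genes are close copies of each other, as are those of the Ugt1a and Cyp2c groups. Probe sequences were not used here, so how far a probe also reads a neighbouring copy was not tested.

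The alpha-class GSTs Gsta1 and Gsta3 conjugate lipid peroxidation products, and rodent alpha GSTs are also known to isomerize steroid intermediates. Gsta1 ran from 10.66 through 11.19 to 12.51 in OP cancers, and was 11.06, 10.99 and 9.17 in OR cancers and 12.84, 12.04 and 10.23 in LC cancers. In normal tissue it was 13.09, 12.87 and 13.04 in OP rats, 12.37 and 13.27 in OR rats, and 13.83, 13.62 and 13.08 in LC rats. LC cancer 1 and OP cancer 3 reached the lowest normal tissue and the other 10 cancers did not. The difference was -1.94 ± 0.348 (SE, adjusted p = 0.000149 by limma). Gsta3 differed by -1.60 ± 0.272 (SE, adjusted p = 9.12e-05 by limma), and the same cancers were its extremes, LC cancer 1 at 10.86 and OR cancer 3 at 8.03.

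Gstk1, the kappa-class enzyme of mitochondria and peroxisomes, was 8.47 to 9.07 in the cancers (median 8.75), against 9.86 to 10.93 in the normal tissues (median 10.11). The groups did not overlap, and the difference was -1.52 ± 0.119 (SE, adjusted p = 4.23e-08 by limma). Gstt1, of the theta class, differed by -0.43 (adjusted p = 0.0221 by limma). Its relative Gstt2 had probes that disagreed: the brighter differed by -0.20 (adjusted p = 0.366), and the other by 0.74 (adjusted p = 0.0174), both by limma. Gsto1, the omega-class enzyme that reduces dehydroascorbate, differed by 0.05 with a 95% interval from -0.29 to 0.40.

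Gstp1 is the placental-form GST long used as a marker of altered foci in rat liver. Its log2 level in OP cancers ran from 12.71 through 13.88 to 14.25, and it was 13.37, 13.34 and 14.11 in OR cancers and 13.66, 14.45 and 13.82 in LC cancers. In normal tissue it was 13.22, 13.09 and 13.39 in OP rats, 13.21 and 13.17 in OR rats, and 12.48, 13.53 and 13.03 in LC rats. The ranges overlapped, with 4 cancers at or below the highest normal tissue. The difference of 0.58 ± 0.213 (SE, adjusted p = 0.0252 by limma) did not hold within batches. All 8 normal tissues were scanned on the same day as 4 of the cancers, whose mean differed from theirs by 0.03, and the 8 cancers of the other day lay between 13.34 and 14.45. With scan day in the fit the difference was 0.06 (adjusted p = 0.833), with slide 0.24 (adjusted p = 0.327), both by limma, and within slides 1, 2 and 3 it was 0.33, -0.33 and 0.17. These slides held the same 4 cancers as the shared scan day, with 1 cancer each on slides 2 and 3. The call was also lost without any 1 of OR cancer 3, LC cancer 2, OR normal 1, OR normal 2 or LC normal 1, with an adjusted p of 0.0509 to 0.0581 by limma.

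The UGTs attach glucuronic acid, and the Ugt1a isoforms share their later exons and differ in the first. Ugt1a2 ran from 8.91 through 9.26 to 10.84 in OP cancers, and was 9.0, 9.43 and 10.12 in OR cancers and 9.23, 9.0 and 8.99 in LC cancers. In normal tissue it was 11.11, 11.05 and 11.03 in OP rats, 10.91 and 11.25 in OR rats, and 11.67, 11.40 and 11.19 in LC rats. The groups did not overlap, though OP cancer 6 came within reach of the normal range. The difference was -1.82 ± 0.211 (SE, adjusted p = 2.27e-06 by limma), while a second, dimmer Ugt1a2 probe gave -0.22 (adjusted p = 0.282 by limma). Ugt1a6, which conjugates small phenols, was 7.70 to 8.03 in cancers and 8.14 to 8.87 in normal tissues, with no overlap and a difference of -0.62 (adjusted p = 7.61e-07 by limma). The other 7 tested UGTs were above background on at most 2 cancer arrays each.

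**Figure D3:**
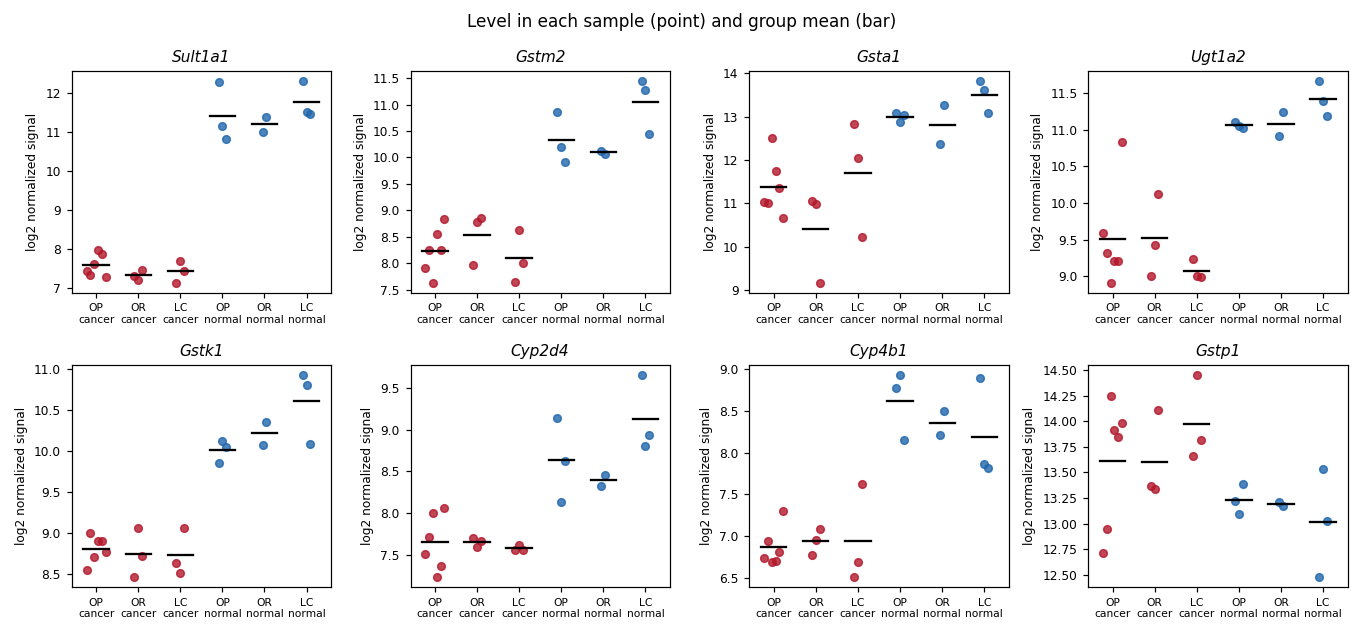
Log2 normalized signal (y axis, its own range in each panel) of 8 genes in each sample, by group: OP, OR and LC cancers in red, then OP, OR and LC normal tissues in blue, with group means as bars. The cancers lie wholly below the normal tissues for Sult1a1, Gstm2, Ugt1a2, Gstk1, Cyp2d4 and Cyp4b1, and overlap them for Gsta1 and Gstp1.

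Among the cytochrome P450 genes, few of those best known from the liver were measurable. Cyp2d4 was 7.23 to 8.06 in cancers (median 7.60), against 8.13 to 9.66 in normal tissues (median 8.72), with no overlap and a difference of -1.10 ± 0.147 (SE, adjusted p = 9.71e-06 by limma). Cyp2j4 and Cyp2j3, of a group that oxidizes arachidonic acid, differed by -0.95 and -0.41 and overlapped. A second, dimmer Cyp2j3 probe, above background on 9 of 12 cancer arrays, gave 0.12 (adjusted p = 0.0764 by limma). The call on Cyp2j4 was lost with slide in the fit (-0.48, adjusted p = 0.115 by limma). Cyp4f6, of a group that hydroxylates fatty acids and leukotrienes, was 11.68 to 12.28 in cancers and 12.44 to 13.02 in normal tissues, with no overlap and a difference of -0.81 (adjusted p = 1.56e-06 by limma). Cyp2d5, Cyp2t1 and Cyp4f5 did not pass, with differences of 0.32, -0.04 and 0.11.

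Of the 4 well-measured P450 genes that act on vitamins and sterols or have no known substrate, 1 rose and none fell. Cyp27b1, the enzyme that makes active vitamin D, was 7.24 to 7.64 in every cancer, above 6.73 to 6.92 in the normal tissues, a difference of 0.56 ± 0.0584 (SE, adjusted p = 8.70e-07 by limma) that was -0.66 and -0.44 on the 75th-percentile scales. The direction of Cyp27b1 is therefore not settled, and the authors' deposited table gave it as lower, by -0.64 (adjusted p = 0.00256 by limma). Cyp24a1, which inactivates vitamin D, was lower, with a difference of -0.85 (adjusted p = 0.00175 by limma), and it was above background on 10 of 12 cancer arrays. Cyp26b1, which degrades retinoic acid, did not differ in mean (0.01, 95% interval -1.11 to 1.12) and was the most variable of the 28 among cancers. It ran from 8.33 to 13.47 across the cancers, against 9.38 to 11.70 across the normal tissues, and OR cancer 1 was the highest. Cyp27a1 and Cyp20a1 differed by -0.08 and -0.03.

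Cyp4b1 and Cyp2c22 were called lower and were dim in cancers, so the sizes of their differences rest in part on signals near the background. Cyp4b1, an enzyme that activates inhaled protoxins, was above background on 6 of 12 cancer arrays. It was 6.51 to 7.63 in cancers and 7.82 to 8.93 in normal tissues, with no overlap and a difference of -1.47 (adjusted p = 2.95e-06 by limma). Cyp2c22 was measured on 4 of 12 cancer arrays only, and its difference was -1.19, or -1.17 with dim signals raised to the lowest above-background signal of their array. Its cancer signals, 6.44 to 7.10, lay close to that floor, so raising them could change little. With processed signals at the 75th percentile Cyp2c22 was -4.02 and Cyp4b1 -3.61, where the median of all genes was -1.51. The remaining dim genes had differences from -0.85 to 0.31 on the quantile scale. Cyp2e1, the ethanol-oxidizing enzyme, had no cancer array on which it was well above background, and its measured difference was -0.43 (adjusted p = 0.00631 by limma). On group means its level in cancers was at least 1.3-fold lower, a bound set by the lowest above-background signal of each cancer array. The normal tissues ran from 6.64 to 7.88 with a median of 6.75, so this bound rests in part on the highest of them and is smaller for most.

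No fold is given for Cyp1a1, the classic target of the aryl hydrocarbon receptor, which was not well above background in any cancer and whose level in normal tissue, 6.48, lay at the floor. Cyp1b1, which oxidizes estrogens, was above background on 8 of 12 cancer arrays and differed by 0.17 (adjusted p = 0.312 by limma). Cyp11a1, the first enzyme of steroid synthesis, was above background on 3 of 12 cancer arrays and differed by 0.02 (adjusted p = 0.801 by limma). Cyp26a1, another retinoic acid hydroxylase, and Cyp4a2 were called higher by 0.31 and 0.30 but were -1.16 and -1.66 on the processed-signal 75th-percentile scale.

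Genes that work with these families were read from a list of regulators, partners, other enzymes and transporters, of which 49 were tested. Of these, 13 were called higher in cancers and 14 lower, with a median of -0.09, beside the shares of 29% higher and 33.5% lower for all genes. Aox1, an aldehyde oxidase, was lower, with a difference of -4.22 ± 0.16 (SE, adjusted p = 1.26e-11 by limma), and Mgst1, a microsomal GST outside the named families, differed by -2.01 (adjusted p = 1.45e-07 by limma). Fmo1, a flavin monooxygenase, was measured on 3 of 12 cancer arrays only, and its difference was -2.13, or -2.07 with dim signals raised to the lowest above-background signal of their array. It was -5.44 with processed signals at the 75th percentile, so its size is not settled. Ggt1, which begins the breakdown of extracellular glutathione and its conjugates, was higher by 2.84 ± 0.263 (SE, adjusted p = 2.34e-07 by limma).

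Genes that supply or regulate these enzymes were called in both directions. Of 13 tested partners 6 were called higher and 3 lower, and of 10 tested regulators 2 were called higher and 2 lower. Ugdh, which makes the glucuronic acid donor, was higher by 0.46 (adjusted p = 0.00146 by limma), and Por, the P450 reductase, by 0.42 (adjusted p = 0.0113 by limma). Nfe2l2, which encodes Nrf2, and its inhibitor Keap1 were higher by 0.56 (adjusted p = 0.000976) and 0.80 (adjusted p = 0.000402), both by limma. These 4 stayed above 0 on the 75th-percentile scales. Gclc, which limits glutathione synthesis, and Nqo1, a classic Nrf2 target, were called higher by 0.62 (adjusted p = 4.70e-07) and 0.64 (adjusted p = 1.20e-06), both by limma, and were -0.32 and -0.44 on the processed-signal 75th-percentile scale, where the median of all genes was -1.51 and that of the 19440 genes -0.20. The lower partners were Cyb5r3, a reductase of cytochrome b5, Fdxr, which passes electrons to mitochondrial P450 enzymes, and Ugp2, which makes UDP-glucose, with differences of -0.87, -0.58 and -0.33. The lower regulators were the nuclear receptor genes Nr1i3 and Nr1i2, above background on 3 and 0 of 12 cancer arrays. Ahr, the aryl hydrocarbon receptor, differed by -0.04 (adjusted p = 0.544 by limma). Papss2, which makes the sulfate donor, was not among the genes tested.

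The same contrast was then read inside each obesity group. Of the 84 tested genes, 5 were called higher and 36 lower in OP rats, 2 and 19 in OR rats, and 3 and 34 in LC rats. Over all genes 21.2% were called higher and 23.4% lower in OP rats, 13.9% and 14.5% in OR rats, and 19.9% and 23.6% in LC rats. In either direction these were 44.5%, 28.4% and 43.6%, and the groups differ in size, so these counts do not rank the groups. Sult1a1 was lower in each, with differences of -3.84 ± 0.27 in OP, -3.88 ± 0.349 in OR and -4.34 ± 0.312 in LC rats (SE). Gstm2 differed by -2.09, -1.57 and -2.96, and Gstk1 by -1.21, -1.47 and -1.87, in OP, OR and LC rats. All 9 of these differences were called, as was that of Cyp4b1 in each group (-1.76, -1.42 and -1.25). The OR count rests on few normal tissues: without OR normal 2 it was 8 in all, and the LC count was 23 without LC normal 1.

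Gstp1 was called in LC rats alone (0.96, adjusted p = 0.0444 by limma, against 0.37 in OP and 0.42 in OR rats). That call was lost on both 75th-percentile scales, with slide or scan day in the fit, and without LC cancer 2 (0.73) or LC normal 1 (0.70), so it is not shown to be particular to LC rats. Whether the contrast differed between OP rats and the mean of OR and LC rats was tested by the interaction term, and it called 0 of the 36038 genes (0%) and no gene of the 4 families. At an unadjusted p under 0.05 limma gave 4 of the 84 (4.76%), where it gave 4.3% of all genes, and of the 4 Ugt1a6 had the smallest p (difference 0.32, adjusted p = 1 by limma).

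The second question was whether obesity group or diet altered these genes within a tissue. In cancers, limma called 0 genes (0%) for OP against OR, OP against LC, OR against LC and OP against the mean of OR and LC. At an unadjusted p under 0.05 these comparisons gave 6, 2, 2 and 3 of the 84 family genes (7.14%, 2.38%, 2.38% and 3.57%), where they gave 10.9%, 7.21%, 4.18% and 11.4% of all genes. For OP against OR the smallest p was that of Cyp2a1 (-0.22, adjusted p = 0.379), and for OP and OR against LC those of Cyp26a1 (-0.27, adjusted p = 0.486) and Cyp11b2 (0.18, adjusted p = 0.998), all by limma. Among the 28 well-measured genes, the 95% interval had a median half-width of 0.47 between OP and OR cancers. Between OR and LC cancers it was 0.55. These are intervals for single genes without adjustment, so smaller differences would not have been resolved. Calls also needed adjustment across every gene tested, so differences larger than these could fail as well. The lack of calls therefore does not show that such differences were absent. Slide and group also overlapped: 4 of the 6 OP cancers lay on slide 4 with no other group, and 2 OR and 2 LC cancers lay on slide 5. Group and slide therefore cannot be fully told apart in the comparisons with OP cancers.

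Gsto1 illustrates the spread. It was 12.59, 13.44, 11.76, 12.52, 12.11 and 12.05 in the OP cancers, against 11.72, 11.75 and 11.88 in the LC cancers, and OP cancer 3 fell within the LC range. Its difference, 0.63 ± 0.285 (SE, adjusted p = 0.692 by limma), did not pass, and OP cancer 2 was the highest of all samples. Among the 28 genes, the median SD was 0.33 over the 12 cancers and 0.39 over the 8 normal tissues, beside 0.24 and 0.32 for the 19440 genes. Cyp26b1 (SD 1.39), Gsta1 (1.0), Gstm1 (0.93) and Gsta3 (0.75) varied most among the cancers.

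The same comparisons were made among normal tissues. OP against OR, OP against LC, OR against LC and OP against the mean of OR and LC again called 0 genes by limma (0%), with 0, 9, 8 and 0 of the 84 at an unadjusted p under 0.05, where 0.613%, 8.83%, 8.98% and 2.18% of all genes lay under it. Gstm1 was 10.26, 9.66 and 9.36 in OP normal tissues and 9.31 and 9.71 in OR normal tissues, against 10.77, 10.35 and 10.61 in LC normal tissues. The LC values lay above all the others. OR against LC gave -1.07 ± 0.283 (SE, adjusted p = 0.331), and OP against LC -0.82 ± 0.253 (SE, adjusted p = 0.396), both by limma.

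Cyp4f5 was ordered alike, at 8.99, 8.80 and 8.57 in OP and 8.66 and 8.71 in OR normal tissues, against 9.49, 9.09 and 9.86 in LC normal tissues. It differed by -0.79 for OR against LC and by -0.69 for OP against LC, each with an adjusted p of 0.381 by limma. These 2 comparisons share the LC samples. Within LC normal tissue, the mean luminal marker level was 10.51 in sample 1 and 11.33 in sample 3, against 12.72 to 13.09 in the other 6 normal tissues, and the mean lymphocyte marker level of sample 3 was 12.07, against 7.58 to 7.91 in the others. The part of tissue makeup in these differences was not tested. Without LC normal 1 a single family gene was called for OP against LC, Cyp26a1 (-0.65, adjusted p = 0.0464 by limma), a gene chosen here after its value was seen.

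**Figure D4:**
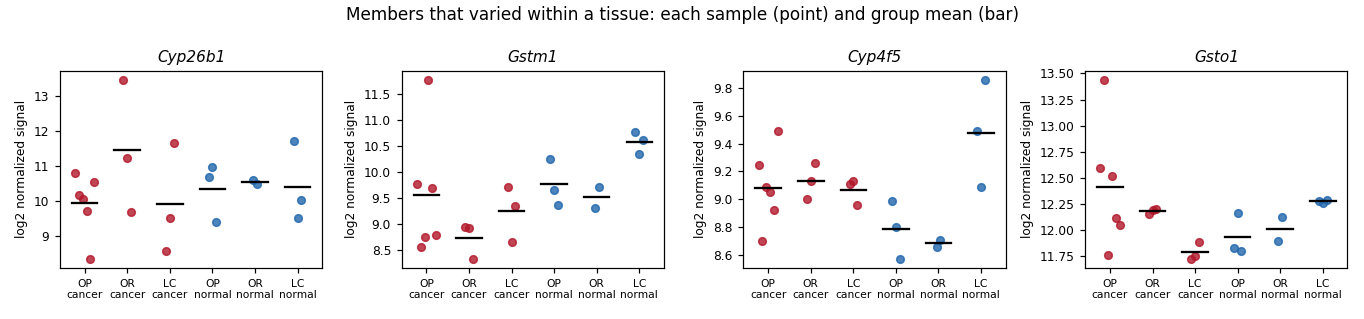
Log2 normalized signal (y axis, its own range in each panel) of Cyp26b1, Gstm1, Cyp4f5 and Gsto1 in each sample, with group means as bars, cancers in red and normal tissues in blue. OR cancer 1 is the highest sample for Cyp26b1 (13.47) and OP cancer 4 for Gstm1 (11.78), and the 3 LC normal tissues lie above the other normal tissues for Gstm1 and Cyp4f5.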

How the data were processed

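Total RNA of 20 tissues was read with Cy3 on Agilent Whole Rat Genome arrays, 1 colour and 1 sample each. Per the file headers, the scanner files hold spot and local background brightness as an intensity, the processed signal, also an intensity, and quality flags (0 or 1). Feature Extraction is given as 10.7.3.1, per the submitters' processing notes, and as 9.5.1.1, per the file headers, with array build rn4. The authors also deposited log2 values, for which RMA and GeneSpring GX 12 are named in the series' design text. Median spot signals were used, as the planned mean signals are not in these files.

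In R 4.3.3 with limma 3.58.1 (figures: matplotlib 3.10.9 in Python 3.11.15), signals were normexp-corrected (offset 50) and quantile-normalized on log2. Of 41012 probes (43379 non-control spots, 1639 control spots, 0 saturated), 121 with an outlier mark were left out, as were 825 whose share of arrays well above background was under 0.5 in every group. The brightest of several probes stood for a gene. Of 13948 RefSeq accessions, 8991 matched a symbol through RefSeq's GRCr8 table, so 30177 probes stayed unnamed; those were tested too. Cancers were fitted alone (9 residual degrees of freedom), normal tissues alone (5), and the 20 arrays jointly for contrasts between tissues (14). Adjustment was by Benjamini-Hochberg across every gene tested. No array pair correlated above 0.993, and no 2 were treated as 1 sample. The number of arrays limits the precision.

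Named genes were the 12 largest called rises and falls for cancer against normal, 5 in the other comparisons, the 3 smallest p where none passed, and Cyp1a1, Cyp1b1, Cyp2e1, Cyp4b1, Cyp24a1, Cyp27b1, Cyp11a1, Gstp1, Gstm1, Gstt2, Sult1a1, Sult1e1 and Ugt1a6, and from the pathway list the 3 smallest p in each direction and Ahr, Nfe2l2, Por, Nqo1 and Ugdh; Keap1, Cyb5r3, Fdxr, Ugp2, Nr1i3 and Nr1i2 were named after their values were seen, and others among the 28 well-measured genes are given to account for every one. The members, lists and tests were chosen with earlier results of these data known. The joint fit was tested on simulated data for cancer against normal only. Alternatives tried were other scalings, filters, probes, and slide, scan day, and replicate blocks, and leaving out each sample.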

Additional observations from a re-analysis of the deposited data

Results flagged for a closer look

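Among the OP cancers, Ugt1a2 in sample 6 had a log2 level of 10.84, against 8.91 to 9.59 in the other 5, and its distance from the nearest of them took up 0.647 of the group's range. It was the only 1 of 26 genes tested in the OP cancers that stood apart in this way, where chance alone marks about 1 in 20. The 26 genes were read in the same 6 samples and are not independent, and the smaller groups were not tested. The same sample had the highest mean fibroblast marker level of the cancers (15.39) and the highest macrophage marker level (13.48); their part in the Ugt1a2 level was not tested.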

How the results depend on the processing

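Of the 84 tested genes, 48 were called for cancer against normal, 41 in OP, 21 in OR and 37 in LC rats. With processed signals aligned at the 75th percentile these counts were 74, 69, 64 and 70, and with normexp signals aligned there 74, 69, 64 and 59. For cancer against normal these 2 scales called 1 family gene higher and 73 lower, and called 80.8% and 81.4% of all genes, of which 17.7% and 17.3% were higher. In the authors' deposited value table, which held 28 of the genes, they were 18, 13, 10 and 15. With slide as a fixed block 43 were called for cancer against normal, 39 of them among the 48, and with scan day 45. These blocks called 53.5% and 54.3% of all genes. Raising dim signals to the lowest above-background signal, a setting chosen after seeing the data, gave 15 higher and 35 lower. It called 66.8% of all genes, of which 56.2% were higher. Leaving out 1 sample gave 44 to 49 for cancer against normal, 29 to 44 in OP, 8 to 25 in OR and 23 to 37 in LC rats, and 0 to 1 for OP against LC normal tissue, with 1 without LC normal 1; all other within-tissue comparisons stayed at 0. Scan day could not be fitted among normal tissues, which share a single day.

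Same-numbered samples did not pair (correlations from -0.347 to 0.279). With the replicate block the counts were 46 for cancer against normal, 27 in OP and 11 in OR rats, Gstp1 was 0.43 (adjusted p = 0.0834) and Gstm1 -0.92 (adjusted p = 0.00095), both by limma. This block called 58.5% of all genes for cancer against normal.

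For the genes named by rule in each comparison, directions against 0 turned as follows. Turns of other genes are not listed in full. The 75th-percentile scales move the median of all genes from -0.03 to -1.51 (processed) and -0.80 (normexp), and other causes were not tested. For cancer against normal with processed signals at the 75th percentile, Sult2b1 was -0.11, Cyp27b1 -0.66, Cyp26a1 -1.16, Cyp4a2 -1.66, Cyp1b1 -1.93, Cyp11a1 -2.59 and Sult1e1 -2.63. With normexp signals there, these were -0.14, -0.44, -0.70, -0.71, -0.87, -1.02 and -0.86 in the same order, and Gstt2 was 0.03. In the value table, where the median of all genes was -0.19, Sult2b1 was -0.09 (adjusted p = 0.80) and Cyp27b1 -0.64 (adjusted p = 0.00256, called lower), both by limma. In OP rats Sult2b1, Cyp27b1, Cyp26a1, Cyp4a2 and Cyp4f1 were -0.27, -0.62, -1.31, -1.50 and -1.68 with processed signals, and -0.28, -0.41, -0.71, -0.77 and -0.73 with normexp signals; the value table gave -0.27 for Sult2b1 and -0.61 for Cyp27b1. Cyp27b1 was -0.82, -0.60 and -0.79 in OR rats, and -0.54, -0.32 and -0.52 in LC rats, in those 3 settings. Cyp4a2 in LC rats was -1.69 and -0.38 at the 75th percentile. Among cancers, Cyp2d3 was 0.28 for OR against LC with processed signals, Cyp11b2 was -0.11 for OR against LC with normexp signals, and Cyp11b3 was -0.12 and -0.16 for OP against the mean of OR and LC. The second Gstt2 probe gave 0.74, raised dim signals gave Cyp1a1 0.05, Cyp11a1 was -0.01 without OR cancer 1 and up to 0.06 without other samples, and Gstp1 was -0.33 within slide 2, which held 1 cancer. Outside the rule for cancer against normal, the well-measured and uncalled Cyp2d5, Cyp20a1 and Cyp2t1 also turned. They were 0.32, -0.03 and -0.04 on the quantile scale and -0.20, 0.18 and 0.08 with processed signals. In the value table they were -0.18, 0.20 and 0.10.

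The 16 falls among the 28 genes above background on all arrays were below 0 within all 3 slides that held both tissues. Those slides held only the 4 cancers scanned on the day of the normal tissues, with 1 cancer each on slides 2 and 3. The slide values are therefore not separate from a reading within that day. Signal over background limits the other 56 tested genes.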
